A study of Arabidopsis thaliana with 27 samples.

Results

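Transcript levels in wild-type (WT) Arabidopsis thaliana after a short exposure to cadmium (Cd) were compared with those of WT plants kept without Cd, on 6 of the 27 single-color NimbleGen expression arrays of the series. The arrays were chosen by their labels alone, 3 labelled WT with Cd at 100 μM for 0.5 h and 3 labelled WT in the control condition, and each array gave a value for 37118 features that represent 32627 loci. Each of the 9 groups of the series, which cover WT, a glycolate oxidase mutant and the overexpression line 35S::GOX2, all untreated or given Cd for 30 min or 24 h, had 3 arrays. The question put to these 6 arrays was which transcripts differ early after Cd reaches the plant.

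Both groups were of ecotype Col-0 with no allele or transgene named, and were grown for 2 weeks on solid MS medium before incubation with 100 μM Cd or in a solution free of Cd. The labels call the material seedlings in one place and leaves in another, and pool at least 5 plants in each replicate. Root markers gave clear signal in both groups, for example CASP1, which forms the Casparian strip of the root endodermis, with a mean log2 level of 14.31 in control and 14.16 after Cd. The labels and the study's overview of its data sets give the short exposure as 0.5 h, and a sentence of its methods gives 1 h. Below, "Cd arrays" are those labelled WT Cd 30 min and "control arrays" those labelled WT control.

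Cd enters plant cells through transporters for essential metals, binds thiols and displaces other metals, and it raises the level of reactive oxygen species. Plants chelate Cd with glutathione and with phytochelatins, which are made from glutathione, and move the complexes into the vacuole, so that demand for sulfate uptake and reduction rises. GOX2 encodes a peroxisomal glycolate oxidase of photorespiration whose reaction produces H2O2, which can also act as a signal.

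GOX2 (AT3G14415) was read first, because it checks the genotype on the labels. Its log2 level was 13.69, 13.77 and 13.72 on the control arrays. On the Cd arrays it was 10.03, 10.45 and 10.43. Every Cd array lay below every control array, and GOX2 fell by 3.43 on the log2 scale (SE 0.12, 10.7-fold, limma adjusted p = 1.54e-13, n = 3 and 3).

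The low GOX2 level was shared with 2 other groups. It read 9.79, 10.01 and 10.04 on the arrays labelled gox2 Cd 30 min, and 9.79, 9.65 and 9.60 on those labelled 35S::GOX2 control. No other array of the series was below 13.63, among them the 3 of WT after 24 h of Cd, whose mean was 13.67. A low GOX2 transcript goes against a WT label, so that genotype and Cd cannot be told apart on the Cd arrays, and every direction below is that of the arrays as labelled.

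On the brightest feature of each locus, other members of the family did not share the pattern. GOX1, the main photorespiratory isoform with GOX2, read 15.27, 15.23 and 15.21 in control and 15.23, 15.16 and 15.22 after Cd (difference -0.03, adjusted p = 0.774). GOX3 differed by 0.05 on its brightest feature but by -0.51 as the mean over the features of its locus (adjusted p = 0.347). HAOX1 differed by 0.17 and HAOX2 by 0.02. For the catalases, which break down H2O2, the differences were -0.03 for CAT1, -0.17 for CAT2 and 0.04 for CAT3. None of these 7 passed the threshold, an adjusted p under 0.05 over all features. GOX1 and GOX2 are close in sequence, and cross-hybridization between their probes was not tested.

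Several other features split the arrays in the same or in a related way, and 3 of them are given here. The protein-coding locus AT5G03090 read 11.67, 11.57 and 11.89 in control and 7.95, 8.28 and 8.39 after Cd (-3.50, adjusted p = 4.01e-12), and was low on the same 9 arrays as GOX2. The pseudogene AT3G60170 read 5.39, 5.01 and 5.21 in control and 8.59, 8.68 and 8.73 after Cd (3.46, adjusted p = 4.01e-12), and was high on those 9 arrays. For both loci every Cd array lay beyond every control array. AT5G15420 and HEI10, listed below among the falls, were also low on the same 9 arrays. There they were at most 7.97 and 9.72, against at least 8.98 and 10.63 on the other arrays.

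Largest of all was the fall of the pseudogene AT2G05040. Its log2 level was 10.94, 10.87 and 10.65 in control and 4.93, 4.95 and 4.70 after Cd, a difference of -5.96 (SE 1.13, adjusted p = 0.00133). Over the series it was high on the control arrays, on those of WT after 24 h, on 35S::GOX2 Cd 30 min replicates 1 and 3 and on gox2 Cd 24 h replicate 3, and low on the other 18 arrays. The plot of these 4 features on all arrays shows both patterns.

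**Figure D1:**
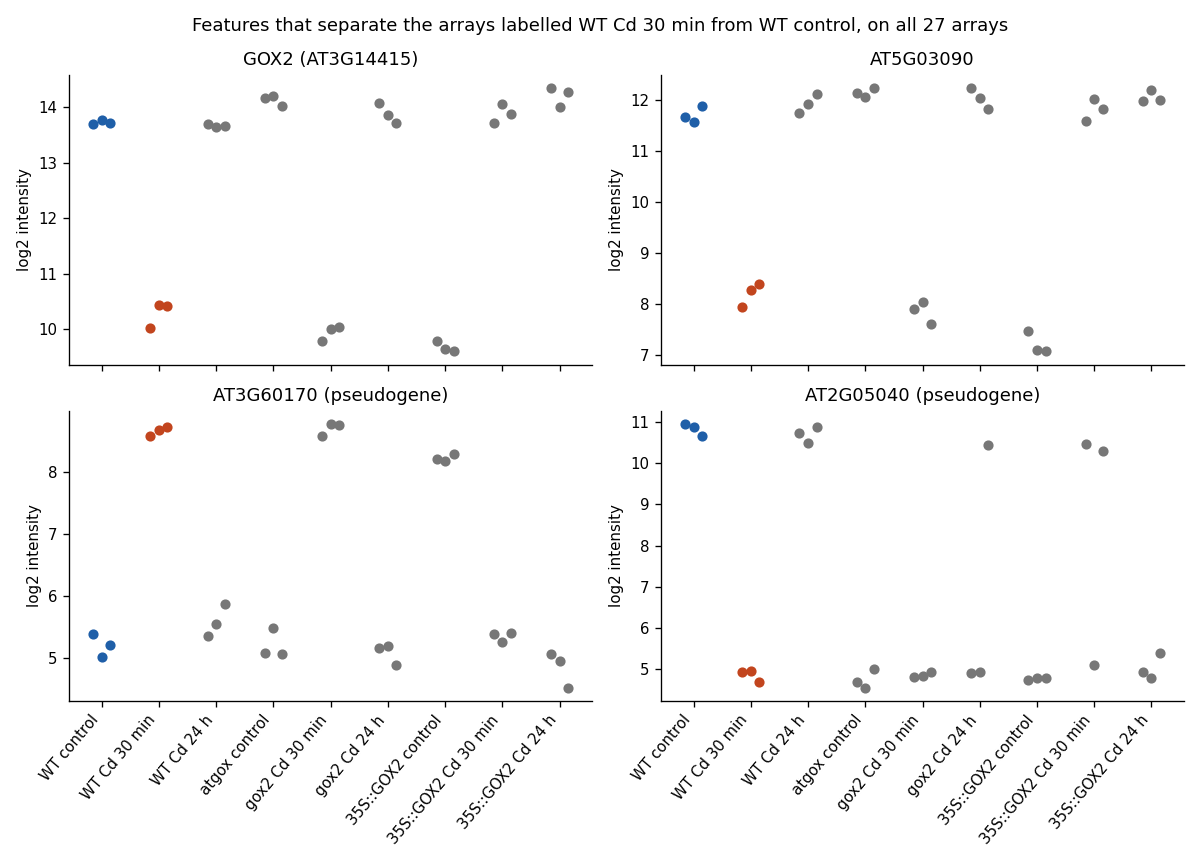
Log2 intensity (vertical axis) of GOX2, AT5G03090, AT3G60170 and AT2G05040 on each of the 27 arrays, by labelled group (horizontal axis), with WT control in blue, WT Cd 30 min in red and the 7 other groups in grey. On the 3 arrays labelled WT Cd 30 min GOX2 lies between 10.03 and 10.45, against 13.69 to 13.77 in WT control.

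Over all features, 5579 of 37118 passed the threshold (15.0%), of which 3194 were higher on the Cd arrays (8.60%) and 2385 lower (6.43%). By at least 1 on the log2 scale, 1163 were higher and 287 lower. For 42.4% of all features, called or not, the 3 Cd arrays lay entirely above or entirely below the 3 control arrays, and the median difference over all features was -0.03.

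These features moved with the array's place on its slide. The control arrays were the arrays numbered 1 to 3 of a first slide in the image names and the Cd arrays those numbered 1 to 3 of a second, so that slide and group cannot be told apart. The mean level of the 1163 rising features was 6.76, 6.74 and 6.87 on the control arrays and 8.87, 8.25 and 7.90 on the Cd arrays. It also moved along the first slide inside other groups, from 6.93 to 7.29 within WT Cd 24 h, from 7.40 to 8.02 within gox2 Cd 30 min and from 8.49 to 9.01 within 35S::GOX2 control, each time upward with the array number. On the second slide it was highest on the array numbered 1. The 287 falling features ran the other way, with 7.22 to 7.29 on the control arrays and 5.69 to 6.36 on the Cd arrays.

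**Figure D2:**
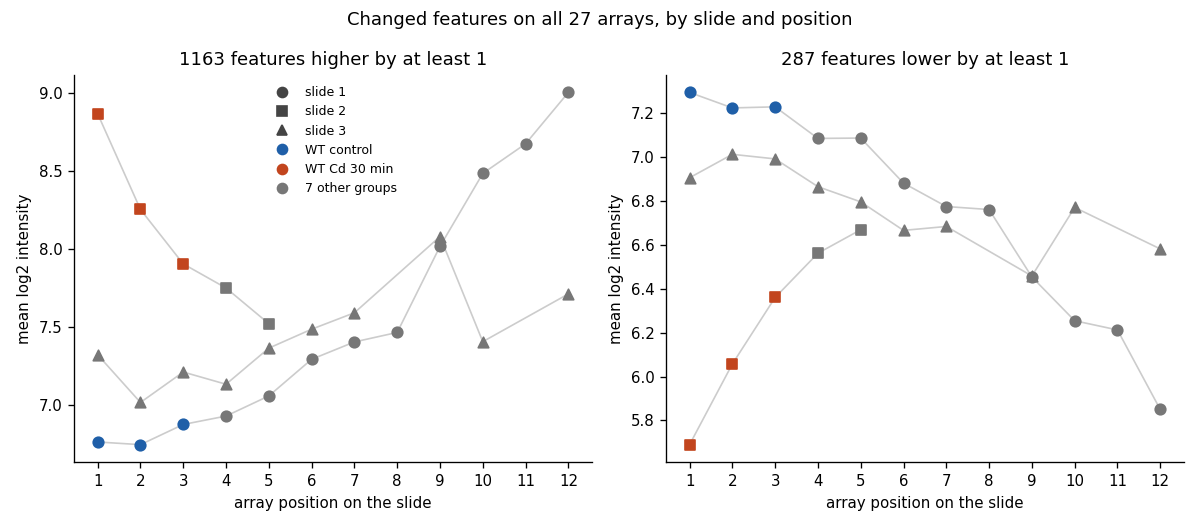
Mean log2 intensity (vertical axes) of the 1163 features called higher by at least 1 (left) and of the 287 called lower by at least 1 (right) against the array's number on its slide (horizontal axes), for all 27 arrays. Lines join arrays of one slide. The WT Cd 30 min arrays hold places 1 to 3 of slide 2. The WT control arrays hold places 1 to 3 of slide 1. The level of both sets also differs between places inside other groups.

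With slide as a random block 1213 features were called (3.27%), 979 higher and 234 lower. The control and Cd arrays lay on different slides, and the first slide shares no group with the others. This block thus cannot remove a difference between slides from the comparison. It widened the standard error, to a median of 1.35 times. With a covariate that held each array's score on the main direction in which arrays of the same group differed, taken from 3 groups outside the comparison (WT Cd 24 h, gox2 Cd 30 min and 35S::GOX2 control), 10 features were called. This covariate was chosen after seeing the data. That direction held 38.4% of the variance within those groups. Taken from 5 groups or from the 3 WT groups instead, 6 and 5 features were called, but taken from all 9 groups 6631. The score from the 3 outside groups was -1.31 to -1.05 on the control arrays and 0.19 to 1.86 on the Cd arrays. Over all features, weights in that direction correlated at 0.70 with the difference between Cd and control arrays. The covariate thus takes up part of the compared difference itself. With the covariate the standard error also grew, to a median of 1.44 times, so that lost calls are no evidence of equal levels.

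The 10 features called with that covariate were GOX2, AT5G03090, AT5G15420, AT3G60170, AT5G03710, AT5G40847, AT5G37050, AT1G21300, AT2G11115 and AT5G38580. GOX2 then differed by -3.27 (adjusted p = 1.21e-09), AT3G60170 by 3.37 (adjusted p = 3.03e-08) and AT5G03090 by -3.37 (adjusted p = 3.03e-08). AT5G15420 read 9.34, 9.77 and 9.62 in control and 6.84, 7.30 and 7.23 after Cd, and its difference of -2.45 became -2.29. AT5G03710 and AT5G40847, at 4.29 and 4.01 the largest rises of the comparison, were reduced to 2.22 and 2.04.

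A single array also weighed on the counts. Without WT Cd 30 min replicate 1, the array with the highest level of the rising features, 2266 features were called, and 2248 of these were among the 5579. On the 6 arrays of the comparison alone, with no other group in the fit, 6562 were called (17.7%), 3116 higher (8.39%) and 3446 lower (9.28%), with 4131 shared with the 5579. The spread of the 27-array fit is taken over all groups. The median SD between arrays of a group was 0.10 in both groups compared here and between 0.15 and 0.19 in 4 of the others, and the standard error on the 6 arrays was a median of 0.77 times that on all 27.

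The called features were mostly dim. Of the dimmest 25% of features by mean level 22.9% passed, and of the next brighter sets of 25% each, 26.4%, 7.24% and 3.59%. The files hold no detection value, so that which of the dim features were above background is not known here. By annotation, 27.8% of features of transcribed pseudogenes were higher after Cd, 18.5% of features whose locus had no RefSeq match, 13.9% of pseudogenes and 7.22% of protein-coding loci. The plot of difference against mean level shows the calls thinning out with level.

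**Figure D3:**
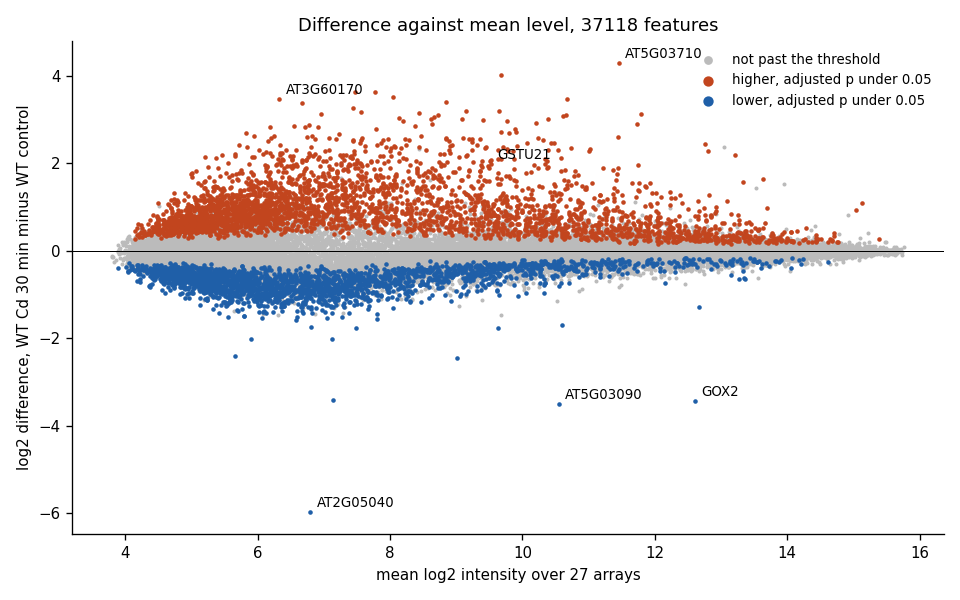
Log2 difference, WT Cd 30 min minus WT control (vertical axis), against the mean log2 intensity over 27 arrays (horizontal axis) for 37118 features, with called features in red (3194 higher) and blue (2385 lower). GOX2 and AT5G03090 stand apart from features of like level.

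The 20 largest rises lay between 3.06 and 4.29 on the log2 scale, and all 20 were still called with slide as a random block. Besides AT3G60170, 6 more of them were pseudogenes and AT5G40847 was not matched, and of the named genes there were 4. sks7, a member of the SKU5-similar family of multicopper oxidase-like proteins, read 5.90, 5.79 and 5.89 in control and 10.51, 9.41 and 8.53 after Cd. IAA13, an Aux/IAA repressor of auxin signaling, read 7.21, 7.52 and 7.54 in control and 11.52, 10.48 and 9.84 after Cd. Its difference of 3.20 (SE 0.46, adjusted p = 0.000197) was thus uneven, with Cd replicate 1 above replicate 3 by more than the whole range of the controls.

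SUC8, a sucrose-proton symporter, rose by 3.17 (9.28, 8.75 and 8.13 after Cd) and CID13, a protein with a CTC-interacting domain, by 3.27 (10.03, 8.88 and 8.43 after Cd). Among these 20 features replicate 1 was the highest of the Cd arrays in all but AT3G60170, where it was the lowest. The means of these 20 on the arrays labelled 35S::GOX2 control, which are not treated with Cd, were also high, for instance 10.55 for sks7 and 11.40 for IAA13.

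Of the 20 largest falls 12 were still called with slide as a random block and 8 were not, MYB41 and HB40 among the latter. MYB41, which activates suberin genes and is induced by osmotic stress, read 8.19, 8.20 and 7.97 in control and 5.88, 6.92 and 6.29 after Cd (-1.76, adjusted p = 0.00679). HB40, a homeodomain-leucine zipper factor, read 7.42, 7.27 and 7.17 in control and 4.91, 5.31 and 5.59 after Cd (-2.02, adjusted p = 0.0156). In both the groups were apart by more than the range of either.

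SWEET10, a sugar transporter, fell by 1.54 (6.83, 6.91 and 6.56 in control against 4.73, 4.82 and 6.12 after Cd). HEI10, a factor of meiotic crossovers, fell by 1.69 (10.86, 11.11 and 11.14 against 9.28, 9.36 and 9.41), and its 3 Cd arrays were close together. AT5G26970 read 9.11, 8.83 and 8.78 in control and 5.42, 5.70 and 5.36 after Cd (-3.41, adjusted p = 0.00076). AT4G18150 differed by -2.40 and ATMG01060, a locus of the mitochondrial genome with no RefSeq match, by -2.02. The remaining 9 of the 20 differed by -1.77 to -1.50.

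Genes known for fast responses were counted from lists, most of them with few calls. List counts are to be read beside the shares over all features. In the 27-array fit 15.0% of all features were called (8.60% higher and 6.43% lower), and on the 6 arrays alone 17.7%. Most named list members called higher in the 27-array fit were also high without Cd. On the arrays labelled 35S::GOX2 control their means were above those on the Cd arrays, for instance 9.01 against 8.59 for CBF3. Exceptions were the polyubiquitin genes UBQ8 (8.12 against 8.19) and UBQ4 (14.11 against 14.23). Of 49 rapid stress transcription factors 1 was called in the 27-array fit, CBF3 (DREB1A), a regulator of cold-response genes, which read 7.83, 7.71 and 8.02 in control and 8.77, 8.45 and 8.56 after Cd (0.73, adjusted p = 0.047). With slide as a random block CBF3 lost its call. Its neighbor CBF1 read 7.59, 7.69 and 7.57 in control and 8.50, 8.42 and 8.52 after Cd. This difference of 0.86 did not pass on 27 arrays (adjusted p = 0.0971) and passed on 6 (adjusted p = 0.007). CBF1, CBF2 and CBF3 are close copies, and their probes may read each other. The list as a whole was shifted the other way, with 42 of 49 members below control and a median of -0.18 against -0.03 over all features.

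In the fit on the 6 arrays alone, 16 of these 49 were called lower (32.7%, against 9.28% of all features) and 2 higher, CBF1 and CBF3. WRKY33, a regulator of camalexin synthesis and defence, read 13.86, 13.86 and 13.92 in control and 13.44, 13.65 and 13.48 after Cd. Its adjusted p was 0.0256 on 6 arrays and 0.353 on 27. The ethylene response factor ERF13 read 9.16, 8.98 and 8.89 in control and 8.04, 8.62 and 8.16 after Cd, with adjusted p values of 0.0306 and 0.477. For both, all 3 Cd arrays were below all 3 control arrays, and replicate 1 was the lowest.

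AZF2, a zinc finger repressor, differed by -0.64 (adjusted p = 0.012 on 6 arrays, 0.072 on 27). ZAT12 and ZAT10, zinc finger factors of oxidative stress, differed by -0.18 and -0.17 and passed in neither fit. The mean deviation of the 49 members from their own 27-array means was -0.24 to -0.23 on the control arrays and -0.50 to -0.35 on the Cd arrays, with no overlap.

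Of 33 calcium, kinase and ubiquitin signaling genes 29 lay below control, with a median of -0.23. None passed in the 27-array fit with limma, 3 had an unadjusted p under 0.05 there, 1 passed by the methods' t-test with adjustment, and in the 6-array fit 7 passed as lower and 1 as higher, against 9.28% and 8.39% of all features. The calcium-binding protein gene CML42 read 10.98, 10.96 and 10.90 in control and 10.56, 10.52 and 10.55 after Cd (-0.41, adjusted p = 0.0111 on 6 arrays, 0.29 on 27). MPK3, a stress-activated MAP kinase, differed by -0.29 and RBOHD, the main NADPH oxidase of stress signaling, by -0.07.

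Heat shock genes went in both directions. Of 31 measured, 2 small heat shock proteins passed in the 27-array fit, and neither with slide as a random block. AT1G53540 read 9.21, 9.03 and 9.15 in control and 9.90, 9.78 and 9.57 after Cd (0.62, adjusted p = 0.00734). The mitochondrial HSP23.6-MITO read 9.51, 9.53 and 9.35 in control and 10.10, 10.06 and 9.95 after Cd (0.57, adjusted p = 0.0285). Neither group of arrays overlapped the other for either gene.

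On the 6 arrays alone 15 of the 31 passed, 6 higher and 9 lower, against 8.39% and 9.28% of all features. The higher ones were small heat shock proteins and an Hsp70, such as the chloroplast HSP21, which read 9.24, 8.996 and 8.996 in control and 9.45, 9.69 and 9.69 after Cd. The lower ones were factors and co-chaperones as well as HSP101. HSFA2, a heat shock factor of oxidative stress, read 12.05, 11.86 and 11.87 in control and 10.99, 11.51 and 11.40 after Cd, with an adjusted p of 0.0363 on 6 arrays and 0.509 on 27. DREB2A, a drought and heat regulator, differed by -0.42 and the coactivator MBF1C by -0.36.

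Sulfur assimilation, which supplies glutathione, showed 1 call of 31. SULTR2;2, a low-affinity sulfate transporter, read 11.49, 11.15 and 11.10 in control and 10.55, 10.78 and 10.77 after Cd (-0.55, adjusted p = 0.0372). With slide as a random block it lost its call. In the 6-array fit 9 of 31 passed, all lower, against 9.28% of all features. SULTR1;2, the main root sulfate uptake transporter, read 13.26, 13.30 and 13.31 in control and 13.03, 12.97 and 12.94 after Cd (-0.31, adjusted p = 0.0193 on 6 arrays, 0.16 on 27).

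The sulfur deficiency marker LSU1 read 10.78, 10.34 and 10.48 in control and 9.12, 9.83 and 9.93 after Cd (-0.91, adjusted p = 0.0457 on 6 arrays, 0.166 on 27). The differences of APR1, APR2 and APR3, which reduce activated sulfate, were -0.18, -0.13 and -0.19, and none passed in the 27-array fit. Over the list, 24 of 31 members were below control with a median of -0.19.

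Of 25 genes of glutathione, phytochelatins and Cd transport 3 passed (12%, against 15.0% of all features), and none with slide as a random block. PCS2, the lesser phytochelatin synthase, read 9.54, 9.44 and 9.67 in control and 10.19, 10.06 and 9.81 after Cd (0.47, adjusted p = 0.0207). HMA3, counted on this list as a Cd transport gene, read 7.69, 7.44 and 7.80 in control and 8.21, 8.01 and 7.94 after Cd (0.41, adjusted p = 0.0373). Whether its product is functional in Col-0 was not tested here. For PCS2 and HMA3 alike, replicate 1 was the highest Cd array and replicate 3 lay just above the controls.

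The metallothionein MT3 fell by 0.33 (13.66, 13.33 and 13.37 against 13.05, 13.04 and 13.26, adjusted p = 0.0494). PCS1, the main phytochelatin synthase, differed by -0.11, GSH1, the first enzyme of glutathione synthesis, by -0.04, and the vacuolar phytochelatin transporters ABCC1 and ABCC2 by 0.02 and -0.01. On 6 arrays only 1 of the 25 passed, PCS2, as higher (4%, against 8.39% of all features). Zinc, copper and iron status genes held no call with limma among 25 and 29 members. At an unadjusted p under 0.05 there were 4 and 1, and by the methods' t-test with adjustment none. On 6 arrays 2 and 1 passed, all lower (8% and 3.45%, against 9.28% of all features). These were the zinc transporters ZIP1 and ZIP9, at -0.38 and -0.55, and BHLH101, an iron deficiency factor, at -0.66. IRT1, the root iron transporter that also carries Cd, read 12.95, 13.17 and 13.23 in control and 13.24, 12.97 and 12.98 after Cd.

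Among 41 glutathione S-transferases, enzymes that join glutathione to toxic compounds, 3 were called (7.32%, against 15.0% of all features). With slide as a random block 2 of these were called, GSTU21 and GSTF3. GSTU21 read 8.16, 8.07 and 8.35 in control and 10.65, 10.19 and 9.68 after Cd, a difference of 1.98 (SE 0.34, adjusted p = 0.000656). It was also at 10.66 on average on the arrays labelled 35S::GOX2 control, without Cd. GSTF3 rose by 0.90 (12.22, 12.10 and 12.46 against 13.41, 13.09 and 13.00), and since GSTF2 is nearly identical, which gene was read is uncertain. The feature of GSTF2 differed by -0.03 (limma adjusted p = 0.748 on 6 arrays), and cross-hybridization was not tested. GSTF4 fell by 0.33.

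On 6 arrays 8 of the 41 passed as higher and 6 as lower, against 8.39% and 9.28% of all features. GSTU25, of the tau class, read 11.22, 11.28 and 11.38 in control and 11.84, 11.71 and 11.52 after Cd (0.40, adjusted p = 0.0401 on 6 arrays, 0.699 on 27). GSTU22 differed the other way, by -0.46. The plot of 12 genes by WT group sets these values beside those at 24 h.

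**Figure D4:**
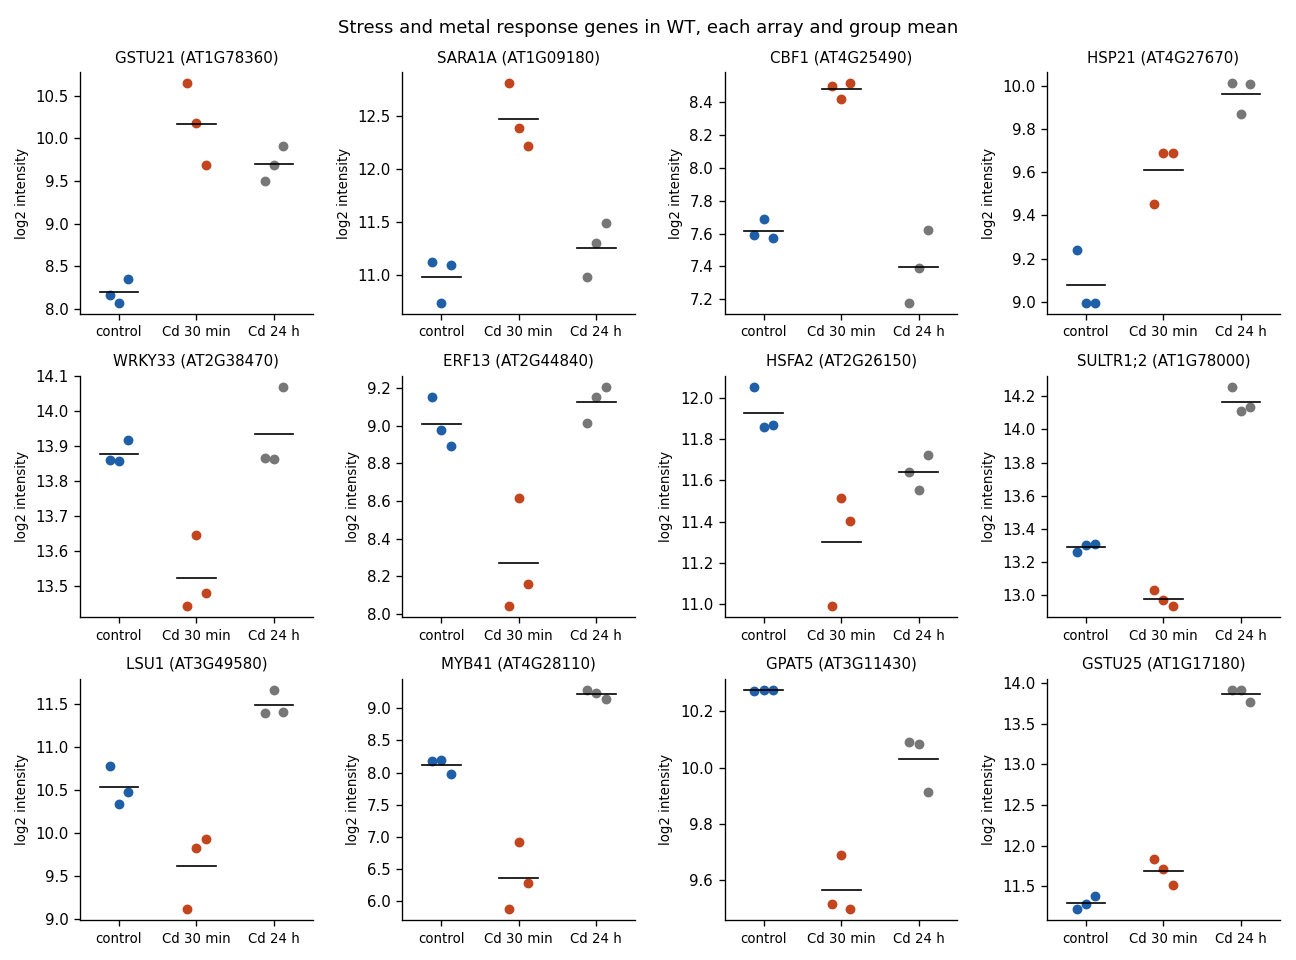
Log2 intensity (vertical axes) of 12 stress, metal and suberin genes on the 3 arrays of each WT group, with the group mean as a line. SULTR1;2 lies below control and GSTU25 above control on the arrays labelled Cd 30 min, and both are highest at 24 h, whereas CBF1 and SARA1A are highest on the arrays labelled Cd 30 min.

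The remaining stress lists held few calls. Of 29 antioxidant enzymes 1 passed, the chloroplast superoxide dismutase FSD2 (0.25, adjusted p = 0.0378), and of 17 photorespiratory genes 2, the aminotransferase AOAT2 (0.31) and GDCH, the H protein of glycine decarboxylase (0.21). In the ER unfolded protein response, SARA1A, a small GTPase of vesicle budding at the ER, read 11.12, 10.73 and 11.09 in control and 12.81, 12.39 and 12.21 after Cd (1.49, adjusted p = 0.000174). It was also at 12.78 on average on the arrays labelled 35S::GOX2 control, without Cd. The factor NAC103 of the same list fell by 0.48, and the other 15 members did not pass. Of FSD2, AOAT2, GDCH, SARA1A and NAC103, SARA1A alone stayed called with slide as a random block.

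Among 26 jasmonate genes AOC1, an allene oxide cyclase of jasmonate synthesis with close copies, rose by 0.36 and the repressor JAZ12 fell by 0.42. With slide as a random block AOC1 alone of these genes stayed called. On 6 arrays AOC1 and AOC3 passed as higher (0.36 and 0.44) and 5 jasmonate genes as lower, against 8.39% and 9.28% of all features, among the latter the repressors JAZ7, JAZ8 and JAZ10 (-0.60, -1.01 and -0.49) and CYP94B3, which breaks down jasmonoyl-isoleucine (-0.68). Of 22 abscisic acid and osmotic stress genes MYB41 alone was called, of 17 auxin genes LBD29, a lateral root factor (-1.05), of 25 nitrate and phosphate genes PEPC1, a phosphatase of phosphate starvation (0.89), and of 17 flavonoid genes AT4G14090 (0.43) and F3H (-0.64). None of the calls of MYB41, LBD29, PEPC1, AT4G14090 and F3H held with slide as a random block.

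The auxin list had a median of 0.18, the highest of all 30 lists but polyubiquitin, with 12 of 17 members above control. SAUR19, a small auxin-induced gene of cell expansion with close copies, read 11.79, 11.59 and 11.75 in control and 12.55, 12.22 and 12.27 after Cd, and IAA1, an early auxin-induced repressor, differed by 0.64. Both passed on 6 arrays (adjusted p = 0.0166 and 0.0229) and not on 27 (0.287 and 0.161).

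Ethylene, salicylate and camalexin, mitochondrial stress, cell wall, sugar starvation and clock genes held no call in the 27-array fit with limma among 17, 19, 17, 19, 23 and 16 members. At an unadjusted p under 0.05 there were 1, 1, 1, 0, 0 and 1, the methods' t-test with adjustment called 1 sugar gene and none of the others, and limma on the 6 arrays called 1, 5, 4, 2, 2 and 4. The 4 mitochondrial stress genes, ANAC013, UGT74E2, AT2G21640 and AT5G09570, were all higher, by 0.22 to 0.76, and ALD1 and FRK1, defence genes, differed by -0.92 and -0.88 from control means of 6.99 and 7.31.

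The study's own list of early genes, common to several mutants and treatments, held 1 call of 101, PSBP-2, an oxygen-evolving complex gene that read 9.37, 9.66 and 9.78 in control and 10.94, 10.23 and 10.03 after Cd (0.80, adjusted p = 0.015) and lost its call with slide as a random block. The study drew that list in part on arrays of this series, so that its direction here is no independent evidence. On 6 arrays 10 passed as higher and 15 as lower (9.90% and 14.9%, against 8.39% and 9.28% of all features). ELI3-2, an aromatic alcohol dehydrogenase, differed by 0.98 and CYP94B1, a jasmonate hydroxylase, by -1.03.

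**Figure D5:**
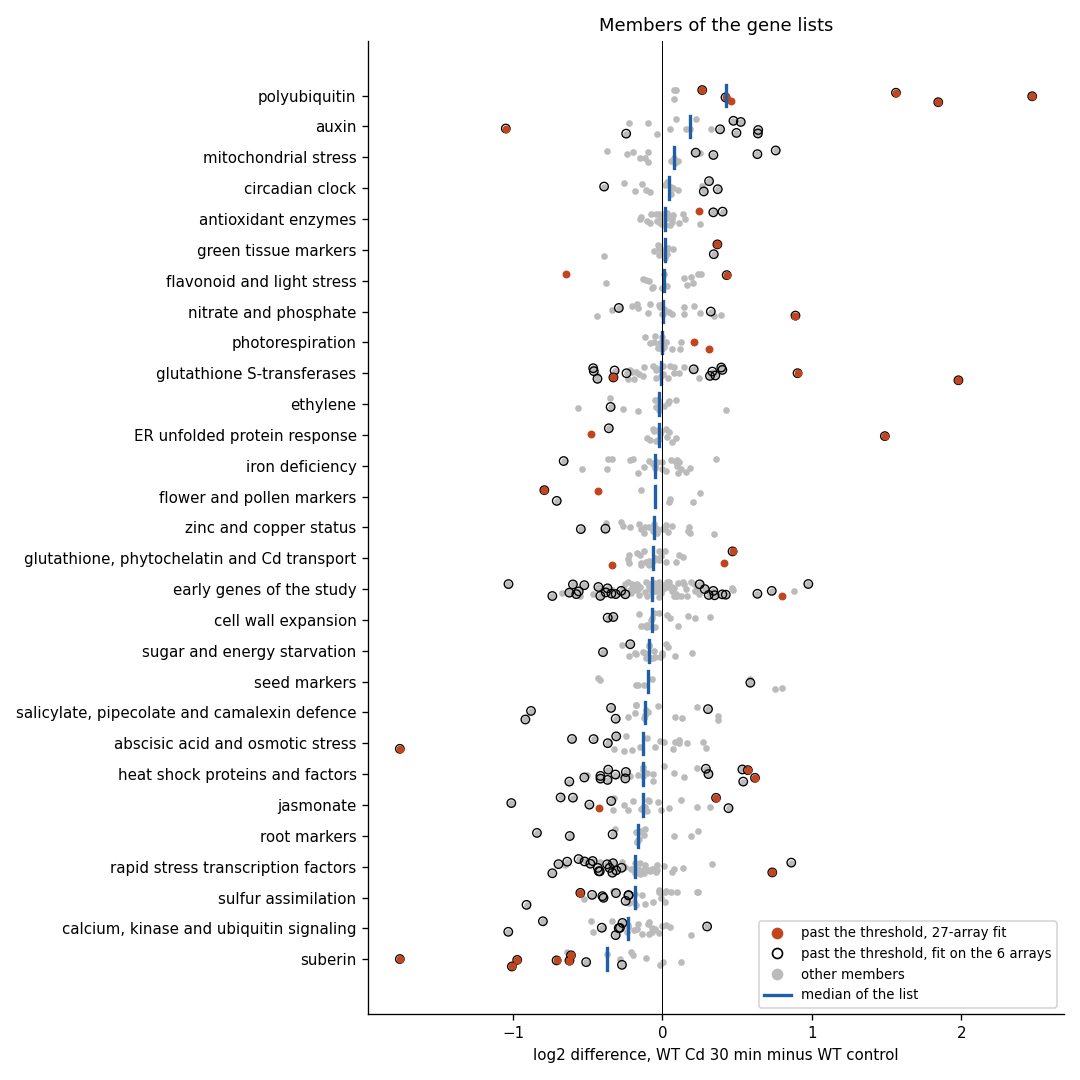
Log2 difference, WT Cd 30 min minus WT control (horizontal axis), of each measured member of 29 gene lists (rows, ordered by median), with calls of the 27-array fit in red, calls of the fit on the 6 arrays ringed and the list's median as a blue bar. Suberin and polyubiquitin, chosen after their values were seen, stand at the ends with medians of -0.37 and 0.42.

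Suberin genes and polyubiquitin genes were picked after their values had been seen, so their counts describe these arrays only. Of 17 suberin genes 6 were called lower (35.3%, against 6.43% of all features) and none higher. With slide as a random block FAR4 alone was called. GPAT5, an acyltransferase of suberin synthesis, read 10.27, 10.28 and 10.28 in control and 9.51, 9.69 and 9.50 after Cd (-0.71, adjusted p = 0.0103). ABCG6, a transporter of suberin monomers, read 11.33, 11.42 and 11.29 in control and 10.29, 10.50 and 10.34 after Cd (-0.97, adjusted p = 0.00643). The fatty acid reductases FAR4 and FAR5 fell by 1.01 and 0.61, CYP86B1, a hydroxylase of very long chains, by 0.62, and MYB41 as given above.

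Root markers, read beside this list, had a mean deviation of 0.44 to 0.50 on the control arrays and 0.22 to 0.33 on the Cd arrays, and 13 of 16 were below control, with CASP5 at -0.84 and SKOR, a stelar potassium channel, at -0.62. None passed with limma on 27 arrays, none had an unadjusted p under 0.05 there or passed the methods' t-test with adjustment. On 6 arrays 3 passed, all lower (18.8%, against 9.28% of all features). In pooled tissue fewer cells of a type and less RNA per cell cannot be told apart, and the part of root material in the suberin values was not tested. Of 17 green tissue markers LHCB2.1, an antenna protein with a near-identical copy, passed (0.37), of 8 flower markers AG (-0.79) and AP3 (-0.43), floral organ identity factors at log2 levels below 7, all lost with slide as a random block, and of 10 seed markers none (0 at an unadjusted p under 0.05 and 0 by the methods' t-test with adjustment).

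Of 9 polyubiquitin genes 6 were called higher (66.7%, against 8.60% of all features). With slide as a random block 3 were called, UBQ12, UBQ9 and UBQ13. UBQ12 read 9.17, 8.79 and 9.43 in control and 12.26, 11.50 and 11.05 after Cd (2.47), UBQ9 differed by 1.84 and UBQ13 by 1.56. UBQ10, UBQ3 and UBQ11, at log2 levels near 15, differed by 0.08, 0.08 and 0.09. All carry repeats of one ubiquitin unit, so which copy each feature read is uncertain.

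The features called here were compared with those after 24 h of Cd in WT. Against the same control arrays, 1194 features were called at 24 h (3.22%), 556 higher (1.50%) and 638 lower (1.72%). Both comparisons share the control arrays. Of the 5579 features called at 30 min 5396 were not called at 24 h against control. That share is near the one over all features, of which 3.22% were called at 24 h. The direct test of 24 h against 30 min called 7909 features (21.3%), 3704 higher at 24 h (9.98%) and 4205 lower (11.3%), and the arrays of the times did not overlap for 51.0% of features. With slide as a random block that count was 1691, without WT Cd 30 min replicate 1 it was 3665, without WT Cd 24 h replicate 1 it was 4393 and without its replicate 2 it was 5072.

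In the lists tied to Cd detoxification most members were not called between 30 min and 24 h. SULTR1;2 was higher by 1.19 (adjusted p = 5.98e-05), LSU1 by 1.87 (adjusted p = 0.00431), GSTU22 by 2.28 (adjusted p = 0.000437) and GSTU25 by 2.18 (adjusted p = 0.00729). Against 9.98% of all features higher at 24 h and 11.3% lower, 11 of 31 sulfur genes were higher and none lower, and 3 of 25 genes of glutathione, phytochelatins and Cd transport were higher and none lower. Of 41 glutathione S-transferases 12 were higher and 4 lower, and of 49 rapid stress factors 15 were higher and 2 lower. GSTU21, by contrast, differed between the times by -0.47 (adjusted p = 0.35) and stood above control at both. WT Cd 24 h arrays lay on the slide of the controls, and their mean GOX2 level was 13.67 against 10.30 on the 30 min arrays. Slide, genotype and time of Cd thus cannot be told apart in this comparison either.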

How the data were processed

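RNA of 27 seedling samples was labelled with Cy3 and read on single-color arrays. The deposited value of a feature was an intensity on the linear scale that the authors' array laboratory had normalized by RMA over 1 to 4 probe pairs, and the submitters' notes name limma with no version. The log2 of the deposited intensity had array medians between 10.02 and 10.17, a range of 0.15 that passed a limit of 0.1, and was quantile-normalized over the 27 arrays. No feature was left out.

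The linear model of limma 3.58.1 (R 4.3.3) gave each of the 9 labelled groups a mean, contrasts were tested after eBayes moderation, and jsonlite 2.0.0 read the labels. Tests were two-sided, with Benjamini-Hochberg adjustment over 37118 features and a threshold of 0.05. Symbols came from RefSeq TAIR10.1 for 31993 of 32627 loci. Lists used, for each locus, the feature with the highest mean. Named were up to 20 rises and 20 falls with arrays that do not overlap, up to 5 called members of each list, the GOX and catalase genes and AT5G03090, and other list members with their values. Members, lists and tests were chosen with earlier results of these data known. Replicates pool at least 5 plants each, and their number limits the precision. No 2 arrays held identical values. Alternatives are given in the closing section.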

Additional observations from a re-analysis of the deposited data

Results flagged for a closer look

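The test of 24 h against 30 min of Cd in WT called 7909 features, 21.3% of all, and 1691 with slide as a random block. The named features among the 7909 are given here with their log2 level at 24 h minus that at 30 min, as the arrays are labelled. Those named for their change at 30 min were chosen on the same 30 min arrays that this test uses. An opposite direction here was thus in part set by that choice.

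Of the features with the largest rises at 30 min, all 20 were lower at 24 h: AT5G03710 (-3.46), AT5G40847 (-3.50), AT3G43528 (-3.36), sks7 (-3.29), AT1G17350 (-2.42), AT3G60170 (-3.08), AT3G42310 (-2.86), AT5G29036 (-2.18), AT2G05370 (-2.64) and CID13 (-2.85), and also AT1G52211 (-2.46), IAA13 (-2.51), SUC8 (-1.78), AT3G31161 (-2.76), AT1G33300 (-2.81), AT3G42130 (-2.37), AT2G31018 (-2.48), AT2G13463 (-2.59), AT2G11773 (-2.62) and AT1G02681 (-2.24).

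Higher at 24 h were GOX2 (3.37), AT5G03090 (3.72), AT2G05040 (5.84), AT5G26970 (3.29), AT5G15420 (2.004), AT4G18150 (1.73), ATMG01060 (2.33), MYB41 (2.86) and HEI10 (2.27). The same held for AT3G61028 (1.66), AT1G13130 (1.60), SWEET10 (1.505), CUTA (1.15), AT1G29000 (1.03), LBD29 (1.26), NAC103 (1.12) and FAR4 (0.70). GOX2, AT5G03090 and AT2G05040 at 24 h were at their levels on the control arrays.

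Lower at 24 h were the polyubiquitin genes UBQ12 (-2.06), UBQ9 (-1.41), UBQ13 (-1.19), UBQ8 (-0.48) and UBQ4 (-0.30), the ER GTPase SARA1A (-1.21) and PEPC1 (-1.57), the early gene PSBP-2 (-1.17) and CBF3 (-0.81), and by less AT4G14090 (-0.56), LHCB2.1 (-0.27), AOC1 (-0.23), AOAT2 (-0.30) and GDCH (-0.27). The small heat shock gene HSP23.6-MITO (0.76) and JAZ12 (0.43) were higher, and so was AP3 (0.43). The slides and the GOX2 levels of the times differ, and the part of slide or genotype in these values was not tested.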

How the results depend on the processing

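The count of 5579 features at 30 min was 3267 without the dimmest 25%, 689 for the brighter 50%, 1450 with a log2 difference of at least 1, 1213 with slide as a random block and, by the methods' t-test, 11444 before and 284 after Benjamini-Hochberg adjustment. Leaving out 1 array gave 2266 to 5748. The covariate from array differences within groups, chosen like the brighter 50% after seeing the data, gave 10, 5 and 6 features from 3 outside groups, the 3 WT groups and 5 groups, and 6631 from all 9. Of 81 named features, which include the uncalled GOX and catalase genes, 66 kept their direction but lost their call with the first of these. GDCH and AT5G15190 turned sign there and also lost their call (adjusted p = 0.998 and 0.966 with limma). The count of 7909 at 24 h against 30 min was 2828 for the brighter 50%, 1866 with a difference of at least 1, 1691 with slide as a random block, 15018 by the unadjusted t-test, 3412, 1173 and 1961 with the covariate in the same order, and 3665 to 7089 with 1 array left out. The cause was not tested.

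GOX2 kept its direction and its call in all 20 alternatives, between -3.50 and -3.17. Values of uncalled genes turned sign for GOX3 (-0.51 as the mean of the locus, -0.26 with the covariate), CAT3 (-0.033 as the mean of the locus), GOX1 (0.095 and 0.047), HAOX2 (-0.027 as deposited, -0.021 to 0.052 with 1 array left out) and CAT1 (-0.053 to 0.011 with 1 array left out, 0.0047 with the covariate). Of called genes, GDCH (-0.0028) and AT5G15190 (0.16) turned sign with the covariate.

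With replicate number as a block 5611 features were called at 30 min and 8198 at 24 h against 30 min. The numbers did not pair the arrays, since deviations of arrays with the same number correlated at -0.13, 0.00 and -0.07. Slide as a fixed block could not be fitted, because the first slide shares no group with the others.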

Other observations

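Loci annotated as miRNA genes were among the features lower on the arrays labelled WT Cd 30 min, with 28 of 151 called lower (18.5%, against 6.43% of all features) and 8 higher. For long and other noncoding RNA 51 of 408 were called lower (12.5%) and 36 higher. The median log2 level of the miRNA loci over the 27 arrays was 5.16, in the dimmest 25% of features, where called features differed by a median of 0.70. Of the 9280 features in that dimmest set 1028 were called lower and 1095 higher, so a share over all features is not matched for level.

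Several features stand for 3602 of the loci, and 860 of these loci had at least 1 call. All features of the locus were called in the same direction for 106, only some of them for 729, and in opposite directions for 25.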
